A study of Homo sapiens with 12 samples.

Results

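The 10 genes described here encode the proteins that sense, admit, release and store calcium at the endoplasmic reticulum (ER): the sensors STIM1 and STIM2, the plasma membrane channels ORAI1 and ORAI2, the inositol trisphosphate (IP3) receptors ITPR1, ITPR2 and ITPR3, and the ER calcium pumps ATP2A1, ATP2A2 and ATP2A3. They were taken by symbol from the 60554 Ensembl gene IDs of the count tables, and all 10 were among the 29003 genes that passed the filter on low counts. Poly(A)-selected, stranded RNA sequencing was run in 12 libraries on a human line derived from embryonic kidney, which the labels call HEK293 cells in one field and HEK293T, a derivative of that line, in another. The 4 groups of 3 libraries received an siRNA pool against RBM17, U2SURP or CHERP, or, as control, a non-targeting siRNA that is not labelled as a pool. RBM17, U2SURP and CHERP are nuclear proteins that associate with the U2 small nuclear ribonucleoprotein of the spliceosome, and CHERP was named for a role in ER calcium homeostasis. These labels were the same for all groups, with passage 10 and the same medium, so every result is from 1 line after transient, incomplete knockdown. Whether the 3 libraries of a group are separate cultures is not stated, so the p-values rest on a spread between libraries that could be purely technical.

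Emptying of the ER calcium store is sensed in the ER lumen by the STIM proteins, which then cluster at contacts with the plasma membrane and open ORAI channels, the route called store-operated calcium entry. IP3, made by phospholipase C downstream of many receptors, opens the ITPR channels and lets calcium out of the ER. The sarco/endoplasmic reticulum calcium ATPases (SERCA) encoded by the ATP2A genes pump it back. ATP2A2 is the housekeeping pump gene, ATP2A1 the pump gene of fast skeletal muscle, and ATP2A3 is best known from blood cells and some epithelia.

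Between 252505520 and 320986785 reads were assigned to genes per library. RBM17 averaged 26.5 ± 0.523 CPM (read counts scaled to a common library total) in RBM17 knockdown libraries and 115 ± 2.73 CPM in control libraries. U2SURP averaged 144 ± 5.65 CPM in its knockdown and 471 ± 33.3 CPM in control, and CHERP 18.0 ± 0.788 CPM in its knockdown and 61.3 ± 1.06 CPM in control (SD, n = 3 throughout). In the other knockdowns, RBM17 averaged 122 ± 1.16 CPM after U2SURP and 123 ± 4.16 CPM after CHERP knockdown. U2SURP averaged 512 ± 13.8 CPM after RBM17 and 563 ± 41.3 CPM after CHERP knockdown. CHERP averaged 73.6 ± 3.35 CPM after RBM17 and 60.1 ± 1.55 CPM after U2SURP knockdown. The numbers in the library titles ran in a block for each group, and what they record is not stated. Mitochondrially encoded genes took 4.64% to 5.02% of counts after RBM17 knockdown, 4.94% to 5.15% after U2SURP knockdown, 3.98% to 4.61% after CHERP knockdown and 7.88% to 8.70% in control. Of the HEK293 markers PAX2, VIM, CDH2, KRT8, KRT18, NEFL and NEFM all were detected, although PAX2 was low (0.481 to 1.80 CPM). They had a summed level of 829 to 943, 715 to 775, 720 to 835 and 714 to 794 CPM in the RBM17, U2SURP, CHERP and control libraries. The members of that sum moved differently. After CHERP knockdown VIM was at 355 to 431 CPM, above its 249 to 285 CPM in control. NEFM was at 137 to 153 CPM after CHERP knockdown, below its 250 to 271 CPM in control. KRT8 and KRT18 were also above control after CHERP knockdown, CDH2 and PAX2 were below it, and NEFL overlapped it. The 6 muscle markers summed to 1.13 to 1.33, 1.56 to 1.93, 1.83 to 2.76 and 2.46 to 3.17 CPM in the RBM17, U2SURP, CHERP and control libraries. The 6 blood markers, of which HBB was at 0, summed to 1.23 to 1.48, 1.26 to 1.44, 2.29 to 2.43 and 3.02 to 3.59 CPM.

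The promoter windows printed here, 250 bases before to 50 bases after an annotated start (RefSeq, GRCh38.p14), were chosen from the 3 genes the results turn on: ATP2A1, which moved in opposite directions between knockdowns, ATP2A2, the pump with the highest level, and STIM1, with the largest fall after CHERP knockdown. Of the 10 genes, 7 had windows in the table, 12 windows in all. Both ATP2A1 windows are shown, and of the 2 ATP2A2 and 4 STIM1 windows the one with most motif matches, chosen after the matches were seen. Capitals mark CCAAT and GGGCGG on either strand and, in the ATP2A2 window, the fixed letters of CCAATNNNNNNNNNCCAC, which overlaps the CCAAT. That motif is only part of the arrangement of the ER stress response element. A match to it does not show that element, and the full element was not searched for.
ATP2A1 chr16:28878238-28878537 (plus strand): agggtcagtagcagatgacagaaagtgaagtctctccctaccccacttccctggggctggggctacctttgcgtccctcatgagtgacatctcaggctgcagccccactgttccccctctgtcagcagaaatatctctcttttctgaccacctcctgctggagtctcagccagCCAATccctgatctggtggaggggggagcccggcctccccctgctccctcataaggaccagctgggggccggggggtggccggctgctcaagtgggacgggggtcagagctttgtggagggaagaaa
ATP2A1 chr16:28879793-28880092 (plus strand): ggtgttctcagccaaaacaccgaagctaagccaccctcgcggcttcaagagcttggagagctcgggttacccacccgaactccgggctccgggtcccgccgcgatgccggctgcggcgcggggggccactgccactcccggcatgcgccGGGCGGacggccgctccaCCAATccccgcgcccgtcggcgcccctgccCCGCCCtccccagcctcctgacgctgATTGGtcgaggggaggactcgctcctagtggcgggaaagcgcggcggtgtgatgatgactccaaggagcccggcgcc
ATP2A2 chr12:110280997-110281296 (plus strand): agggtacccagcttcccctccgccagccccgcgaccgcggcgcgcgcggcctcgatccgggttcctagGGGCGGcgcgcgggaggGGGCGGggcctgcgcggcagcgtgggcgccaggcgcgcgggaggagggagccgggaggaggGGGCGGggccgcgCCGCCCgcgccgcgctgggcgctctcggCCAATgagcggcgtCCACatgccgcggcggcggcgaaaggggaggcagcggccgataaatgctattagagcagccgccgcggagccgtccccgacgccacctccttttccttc
STIM1 chr11:3855453-3855752 (plus strand): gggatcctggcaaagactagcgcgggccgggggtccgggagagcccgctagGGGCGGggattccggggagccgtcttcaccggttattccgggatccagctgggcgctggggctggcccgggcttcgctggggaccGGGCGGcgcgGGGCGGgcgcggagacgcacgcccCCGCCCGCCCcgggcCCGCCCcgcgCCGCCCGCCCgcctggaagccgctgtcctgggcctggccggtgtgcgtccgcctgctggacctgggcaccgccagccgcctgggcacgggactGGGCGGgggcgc
The upstream ATP2A1 window held 1 CCAAT and 0 GGGCGG, and the downstream ATP2A1 window held 2 CCAAT and 2 GGGCGG. The ATP2A2 window shown held 1 CCAAT, 4 GGGCGG and the only CCAATNNNNNNNNNCCAC found in the 12 windows, and the other ATP2A2 window held 0 CCAAT and 0 GGGCGG. The STIM1 window shown held 0 CCAAT and 9 GGGCGG. The other STIM1 windows held 0 CCAAT with 8 GGGCGG, 1 CCAAT with 2 GGGCGG, and 0 of both. None of the 4 windows shown held TATAAA. Among 35116 windows of this length over all genes, 34.6% held CCAAT, 45% GGGCGG, 11.5% TATAAA and 0.316% CCAATNNNNNNNNNCCAC, and a match describes the letters only.

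Of the 10 genes, 9 changed after RBM17 knockdown (2 higher, 7 lower), at an adjusted p under 0.05 in edgeR's quasi-likelihood test with Benjamini-Hochberg adjustment over all genes, where 54.7% of all genes tested were called (25.4% higher, 29.3% lower). All 10 changed after U2SURP knockdown (1 higher, 9 lower), where 43.3% of all genes were called (21.1% higher, 22.2% lower). All 10 also changed after CHERP knockdown (1 higher, 9 lower), where 47.3% were called (22.8% higher, 24.6% lower). Calls were more frequent among the 10930 protein-coding genes with a mean of at least 5 CPM, a level all 10 exceed. Of these, 74.5% were called after RBM17 knockdown (49.8% higher, 24.7% lower), 65.8% after U2SURP knockdown (37.4% higher, 28.5% lower) and 69.2% after CHERP knockdown (35.9% higher, 33.3% lower). The median log2 fold change of the 10 genes was -0.23, -0.36 and -0.44, beside -0.10, -0.02 and -0.0035 for all genes tested. STIM1, STIM2, ORAI1, ITPR2, ITPR3 and ATP2A2 were lower in each of the 3 knockdowns, 6 of 10 genes. Of all genes tested 10.8% were lower in each, and of those protein-coding genes 13.8%. Of the 10 genes 0 were higher in each, against 2964 of all 29003 genes tested and 2408 of the 10930 protein-coding genes. These 3 comparisons share the control libraries. The fit used bulk RNA, in which fewer transcripts per cell and a changed mix of cells cannot be told apart.

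**Figure D1:**
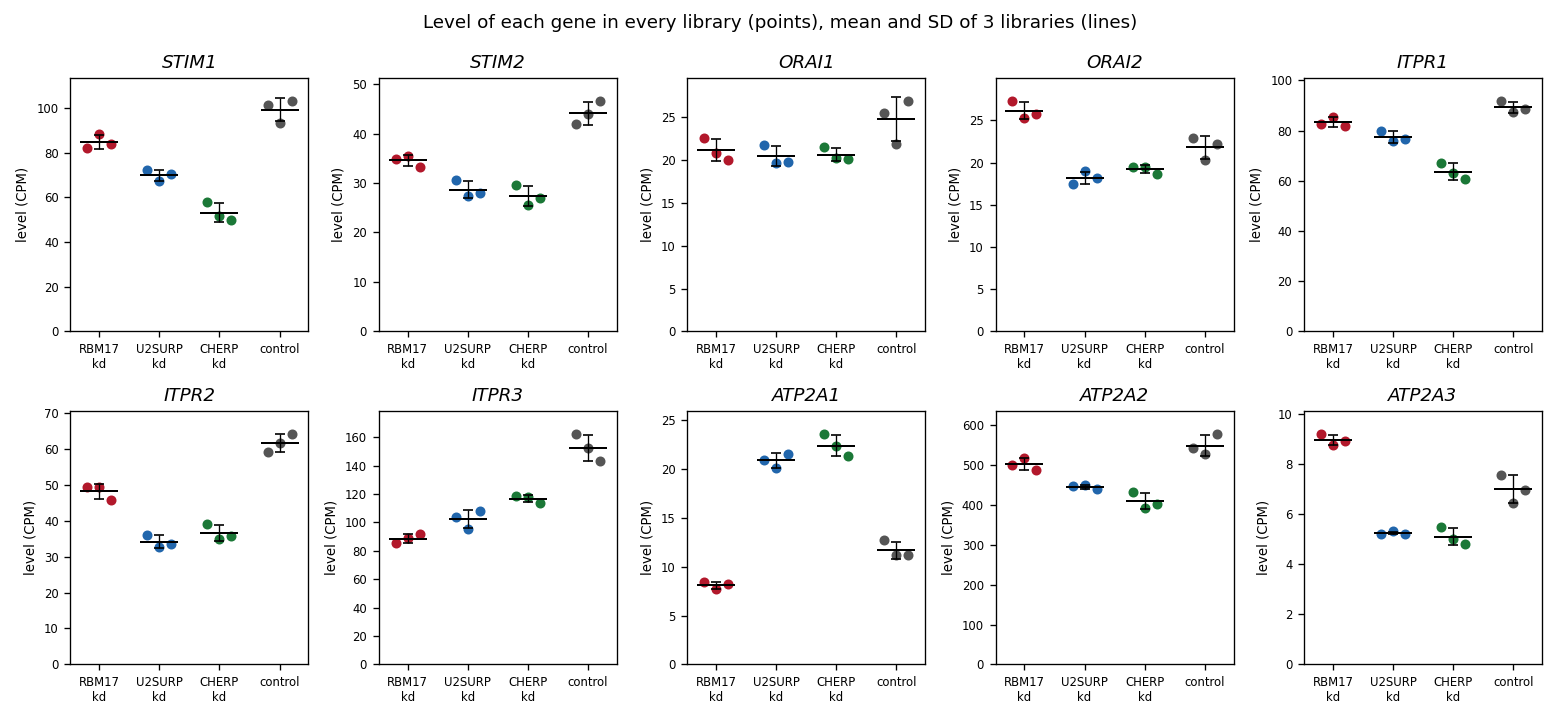
Level of each of the 10 genes in CPM (linear axis from 0) in every library of the RBM17, U2SURP and CHERP knockdowns and of the control, with the mean and SD of 3 libraries. STIM1 lies at 49.8 to 57.8 CPM after CHERP knockdown and at 93.4 to 103 CPM in control, and ATP2A1 stands above control after U2SURP and CHERP knockdown and below it after RBM17 knockdown.

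Both ER calcium sensors were lower in all 3 knockdowns, and STIM1 (ENSG00000167323, GRCh38 chr11:3854527-4093210, plus strand) fell most after loss of CHERP. STIM1 had 81.9, 88.1 and 83.8 CPM in RBM17 knockdown libraries, 72.1, 67.2 and 70.3 CPM in U2SURP knockdown libraries and 57.8, 51.4 and 49.8 CPM in CHERP knockdown libraries, against 101, 93.4 and 103 CPM in control libraries. None of the 4 groups overlapped, and the order from lowest to highest was CHERP, U2SURP, RBM17 and control. The log2 fold change of STIM1 was -0.23 ± 0.058 after RBM17 knockdown (SE; adjusted p = 0.00153, edgeR), -0.51 ± 0.058 after U2SURP knockdown (adjusted p = 1.97e-07) and -0.90 ± 0.058 after CHERP knockdown (adjusted p = 1.21e-11). The CHERP fall was deeper than either of the others when the knockdowns were compared directly, by -0.67 ± 0.058 against RBM17 knockdown (adjusted p = 9.11e-10) and by -0.40 ± 0.058 against U2SURP knockdown (adjusted p = 1.20e-05, both edgeR).

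STIM2 (ENSG00000109689, chr4:26857678-27025381, plus strand), the sensor known for responding to small losses of ER calcium, had 34.9, 35.5 and 33.3 CPM after RBM17 knockdown, 30.6, 27.4 and 27.9 CPM after U2SURP knockdown and 29.5, 25.6 and 27.0 CPM after CHERP knockdown, against 41.9, 43.9 and 46.5 CPM in control. All knockdown libraries lay below all control libraries, while the U2SURP and CHERP libraries overlapped each other. Its log2 fold changes were -0.35 ± 0.061, -0.62 ± 0.061 and -0.69 ± 0.061 after RBM17, U2SURP and CHERP knockdown (adjusted p = 2.95e-05, 2.21e-08 and 2.31e-09, edgeR), and CHERP minus U2SURP knockdown was -0.07 ± 0.061 (adjusted p = 0.475). The ratio of STIM1 to STIM2 counts within a library, which does not depend on scaling, was 1.94 ± 0.0800 after CHERP knockdown and 2.25 ± 0.151 in control (SD, n = 3 each). Its libraries did not overlap, at 1.85 to 2.01 after CHERP knockdown and 2.13 to 2.42 in control, whereas the ratios of 2.45 ± 0.0893 after RBM17 and 2.44 ± 0.0819 after U2SURP knockdown overlapped control. The ratios were not tested.

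Of the channels that the sensors open, ORAI1 was slightly lower in every knockdown and ORAI2 differed in direction between them. ORAI1 (ENSG00000276045, chr12:121626550-121642677, plus strand), the pore subunit of the classical calcium release-activated channel, had 22.5, 20.8 and 20.0 CPM after RBM17 knockdown, 21.8, 19.7 and 19.8 CPM after U2SURP knockdown and 21.5, 20.2 and 20.1 CPM after CHERP knockdown, against 25.5, 21.9 and 26.8 CPM in control. The knockdowns overlapped one another, and the lowest control library came within the RBM17 range. ORAI1 fell by similar amounts in the 3 comparisons, with log2 fold changes of -0.23 ± 0.070, -0.28 ± 0.070 and -0.26 ± 0.070 for RBM17, U2SURP and CHERP knockdown (adjusted p = 0.00779, 0.00231 and 0.003, edgeR), and no direct comparison of knockdowns was called (adjusted p = 0.606 to 0.921). The RBM17 call was lost without control library 3 (-0.17, adjusted p = 0.0561). With offsets for GC content and gene length the CHERP call was lost (-0.11, adjusted p = 0.134) and the U2SURP value was -0.18.

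ORAI2 (ENSG00000160991, chr7:102433106-102456821, plus strand), a related channel subunit, had 27.3, 25.3 and 25.8 CPM after RBM17 knockdown, 17.5, 19.0 and 18.1 CPM after U2SURP knockdown and 19.5, 19.5 and 18.7 CPM after CHERP knockdown, against 22.9, 20.3 and 22.2 CPM in control. RBM17 libraries were all above control, and the U2SURP and CHERP libraries were all below it. It rose after RBM17 knockdown, by 0.26 ± 0.059 on the log2 scale (adjusted p = 5.76e-04, edgeR), and fell after U2SURP knockdown (-0.26 ± 0.059, adjusted p = 9.17e-04) and CHERP knockdown (-0.18 ± 0.059, adjusted p = 0.0134). The direct difference of RBM17 minus U2SURP knockdown was 0.52 ± 0.059 (adjusted p = 1.41e-07) and that of CHERP minus RBM17 knockdown -0.44 ± 0.059 (adjusted p = 9.09e-07). The CHERP fall was not called without control library 1 (-0.15, adjusted p = 0.0773) and was 0.00165 with GC and length offsets (adjusted p = 0.983), which also brought the U2SURP value to -0.15. Over 584 bases, 5.3% of its exon length, ORAI2 overlaps ALKBH4 on the opposite strand, and ALKBH4 had a log2 fold change of 0.52 after RBM17 knockdown (adjusted p = 3.41e-07). The kit marks strand, but the strand setting of the counting is not given in the sources used here, and the part of overlapping reads in these values was not tested.

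The 3 IP3 receptor genes each followed a different order across the knockdowns. ITPR1 (ENSG00000150995, chr3:4493345-4847840, plus strand), the receptor prominent in neurons, had 82.5, 85.6 and 82.1 CPM after RBM17 knockdown, 80.0, 75.8 and 76.7 CPM after U2SURP knockdown and 67.2, 63.2 and 60.6 CPM after CHERP knockdown, against 91.7, 87.6 and 88.6 CPM in control. CHERP libraries were the lowest, without overlap with any other group. Its log2 fold change was -0.49 ± 0.050 after CHERP knockdown (adjusted p = 2.34e-08, edgeR), -0.20 ± 0.050 after U2SURP knockdown (adjusted p = 0.00174) and -0.10 ± 0.050 after RBM17 knockdown, which was not called (adjusted p = 0.0997). The RBM17 comparison was called among protein-coding genes alone (-0.17, adjusted p = 0.00303) and had the opposite sign with GC and length offsets (0.0165, adjusted p = 0.731). These offsets brought the CHERP value to -0.32 and the U2SURP value to -0.13, both still called. CHERP knockdown was below RBM17 knockdown by -0.39 ± 0.050 (adjusted p = 5.48e-07) and below U2SURP knockdown by -0.28 ± 0.050 (adjusted p = 1.29e-04).

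ITPR2 (ENSG00000123104, chr12:26336515-26833198, minus strand), the receptor known for its high affinity for IP3, had 49.3, 49.4 and 45.8 CPM after RBM17 knockdown, 36.1, 32.7 and 33.6 CPM after U2SURP knockdown and 39.1, 34.9 and 35.6 CPM after CHERP knockdown, against 59.1, 61.6 and 64.0 CPM in control. The U2SURP and CHERP libraries overlapped each other at the bottom, the RBM17 libraries lay between them and control, and control was highest. ITPR2 fell by 0.85 ± 0.057 on the log2 scale after U2SURP knockdown (adjusted p = 7.76e-11, edgeR), by 0.75 ± 0.057 after CHERP knockdown (adjusted p = 1.73e-10) and by 0.35 ± 0.057 after RBM17 knockdown (adjusted p = 1.10e-05). CHERP minus U2SURP knockdown was 0.10 ± 0.057 (adjusted p = 0.22), and RBM17 minus U2SURP knockdown 0.50 ± 0.057 (adjusted p = 1.68e-07).

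ITPR3 (ENSG00000096433, chr6:33620365-33696574, plus strand), the receptor often placed at ER contacts with mitochondria, ran the other way: it fell most after RBM17 knockdown and least after CHERP knockdown. It had 85.3, 88.8 and 91.8 CPM after RBM17 knockdown, 104, 95.6 and 108 CPM after U2SURP knockdown and 119, 118 and 114 CPM after CHERP knockdown, against 162, 152 and 143 CPM in control, with no overlap between any pair of groups. The log2 fold changes were -0.78 ± 0.055, -0.58 ± 0.055 and -0.39 ± 0.055 for RBM17, U2SURP and CHERP knockdown (adjusted p = 4.25e-11, 1.59e-08 and 3.09e-06, edgeR). CHERP minus RBM17 knockdown was 0.40 ± 0.055 (adjusted p = 1.70e-06), CHERP minus U2SURP 0.19 ± 0.055 (adjusted p = 0.011, but 0.0948 without U2SURP library 2) and RBM17 minus U2SURP -0.21 ± 0.055 (adjusted p = 0.0036, but 0.0522 without U2SURP library 1). With GC and length offsets the CHERP change against control was -0.18 (adjusted p = 8.01e-04). Exons of UQCC2 on the opposite strand overlap 1025 bases of ITPR3, 10.4% of its exon length. UQCC2 had log2 fold changes of 0.44, 0.11 and 0.06 in the RBM17, U2SURP and CHERP comparisons (adjusted p = 9.84e-07, 0.137 and 0.408), and its part in the ITPR3 values was not tested. The ratio of ITPR3 to ITPR1 counts within a library was 1.06 ± 0.0482 after RBM17, 1.32 ± 0.0755 after U2SURP and 1.84 ± 0.0620 after CHERP knockdown, against 1.71 ± 0.0788 in control (SD, n = 3 each). RBM17 and U2SURP libraries were below all control libraries in this ratio, and CHERP libraries overlapped control.

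**Figure D2:**
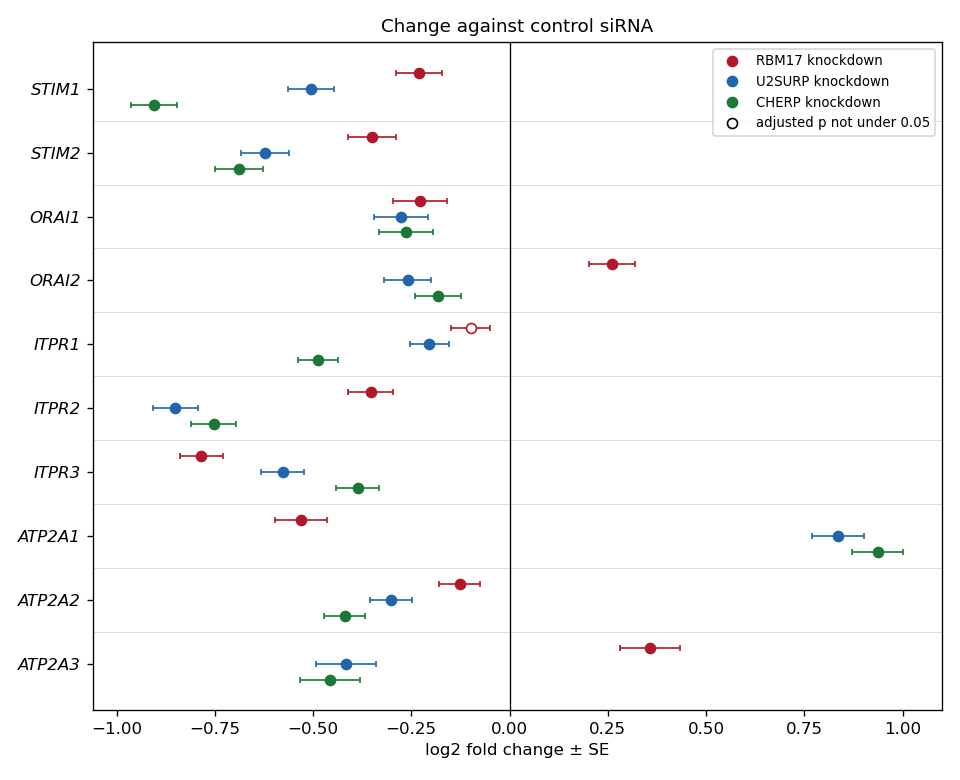
Log2 fold change ± SE of the 10 genes in the RBM17, U2SURP and CHERP knockdowns against control (edgeR; open symbols, adjusted p not under 0.05). Most points lie left of 0, and the exceptions are ORAI2 and ATP2A3 after RBM17 knockdown and ATP2A1 after U2SURP (0.84) and CHERP knockdown (0.94).

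ATP2A1 had the largest difference between knockdowns of the 10 genes: it was 1.78-fold of control after U2SURP knockdown and 1.91-fold after CHERP knockdown, and 1.44-fold lower than control after RBM17 knockdown. ATP2A1 (ENSG00000196296, chr16:28878405-28904509, plus strand) encodes SERCA1 and had 8.40, 7.67 and 8.19 CPM after RBM17 knockdown, 20.9, 20.1 and 21.6 CPM after U2SURP knockdown and 23.5, 22.3 and 21.3 CPM after CHERP knockdown, against 12.7, 11.2 and 11.2 CPM in control. U2SURP and CHERP libraries overlapped each other and lay above all control libraries, and RBM17 libraries lay below them. The log2 fold changes were 0.84 ± 0.065 after U2SURP knockdown (adjusted p = 7.66e-10, edgeR), 0.94 ± 0.065 after CHERP knockdown (adjusted p = 4.49e-11) and -0.53 ± 0.066 after RBM17 knockdown (adjusted p = 2.81e-07). CHERP minus RBM17 knockdown was 1.47 ± 0.066 (adjusted p = 1.57e-14), RBM17 minus U2SURP knockdown -1.37 ± 0.066 (adjusted p = 1.90e-13) and CHERP minus U2SURP knockdown 0.10 ± 0.064 (adjusted p = 0.267).

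The summed level of the 6 muscle markers was 1.56 to 1.93 CPM after U2SURP knockdown, below all control libraries, and 1.83 to 2.76 CPM after CHERP knockdown, overlapping control. Most of that sum was ACTA1, and the members differed: CKM, muscle creatine kinase, was at 0.620 to 0.812 CPM after CHERP knockdown, above its 0.434 to 0.491 CPM in control, and at 0.422 to 0.513 CPM after U2SURP knockdown, overlapping control. MYOG, a muscle transcription factor, was close to 0 in every group, at 0.0319 to 0.0419 CPM after CHERP knockdown and 0 to 0.0167 CPM in control. It was at 0.0187 to 0.0214 CPM after U2SURP knockdown and at 0.0144 to 0.0462 CPM after RBM17 knockdown, which overlapped control. After RBM17 knockdown, where ATP2A1 was lower, CKM was at 0.233 to 0.322 CPM and the sum was lower too. The part of muscle genes in the ATP2A1 values was not tested. Exons of ATP2A1-AS1, an antisense RNA, overlap 246 bases of ATP2A1 (5.4% of its exon length) and those of RABEP2 overlap 89 bases (1.9%), both on the opposite strand. ATP2A1-AS1 averaged 1.75 ± 0.225, 0.997 ± 0.121 and 1.16 ± 0.0610 CPM after RBM17, U2SURP and CHERP knockdown, against 1.55 ± 0.0667 CPM in control (SD, n = 3 each), and RABEP2 averaged 6.48 ± 0.211, 5.14 ± 0.576 and 3.98 ± 0.427 CPM, against 8.29 ± 0.752 CPM. Both averaged below control in the U2SURP and CHERP knockdowns, where ATP2A1 was above it (ATP2A1-AS1 adjusted p = 2.20e-04 and 0.00774, RABEP2 adjusted p = 1.91e-06 and 2.21e-09, edgeR). The part of overlapping reads in the ATP2A1 values was not tested. Gene counts do not show which ATP2A1 transcripts changed, or whether they retain introns.

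ATP2A2 (ENSG00000174437, chr12:110280756-110351093, plus strand), the housekeeping SERCA2 gene, had 501, 518 and 489 CPM after RBM17 knockdown, 446, 449.9 and 439.7 CPM after U2SURP knockdown and 434, 394 and 403 CPM after CHERP knockdown, against 542, 527 and 577 CPM in control. No pair of groups overlapped, and the order from lowest to highest was CHERP, U2SURP, RBM17 and control, as for STIM1. Its log2 fold changes were -0.42 ± 0.053 after CHERP knockdown (adjusted p = 5.05e-07, edgeR), -0.30 ± 0.053 after U2SURP knockdown (adjusted p = 5.44e-05) and -0.13 ± 0.053 after RBM17 knockdown (adjusted p = 0.0445). The RBM17 call was lost with DESeq2's size factors (-0.07, adjusted p = 0.282) and without RBM17 library 1 or 3 or control library 1 or 3 (adjusted p = 0.0682 to 0.168). CHERP minus U2SURP knockdown was -0.12 ± 0.053 (adjusted p = 0.1), which was called without CHERP library 1 (-0.16, adjusted p = 0.0397).

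ATP2A3 (ENSG00000074370, chr17:3923870-3964464, minus strand), the SERCA3 gene, had the opposite pattern to ATP2A1. It had 9.17, 8.74 and 8.92 CPM after RBM17 knockdown, 5.20, 5.30 and 5.21 CPM after U2SURP knockdown and 5.48, 4.99 and 4.80 CPM after CHERP knockdown, against 7.55, 6.45 and 6.95 CPM in control. RBM17 libraries were all above control, and U2SURP and CHERP libraries, which overlapped each other, were all below it. The log2 fold changes were 0.36 ± 0.076 after RBM17 knockdown (adjusted p = 3.28e-04, edgeR), -0.42 ± 0.077 after U2SURP knockdown (adjusted p = 1.03e-04) and -0.46 ± 0.077 after CHERP knockdown (adjusted p = 2.75e-05). With GC and length offsets they were -0.24 after U2SURP knockdown and -0.18 after CHERP knockdown (adjusted p = 0.00411 and 0.0273). CHERP minus RBM17 knockdown was -0.81 ± 0.077 (adjusted p = 4.37e-09). The blood markers were below control in all 3 knockdowns, including RBM17 knockdown, where ATP2A3 was above it. The epithelial markers EPCAM, CDH1, ESRP1 and GRHL2 summed to 7.70 to 8.63, 5.24 to 5.40 and 5.49 to 5.85 CPM after RBM17, U2SURP and CHERP knockdown, against 8.64 to 9.85 CPM in control, and their part in the ATP2A3 values was not tested. The ratio of ATP2A1 to ATP2A3 counts within a library was 0.904 ± 0.0224 after RBM17, 3.99 ± 0.177 after U2SURP and 4.40 ± 0.0926 after CHERP knockdown, against 1.67 ± 0.0638 in control (SD, n = 3 each), with no overlap between any pair of groups. The smallest count of any of the 10 genes in any library was 1459 reads, for ATP2A3.

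**Figure D3:**
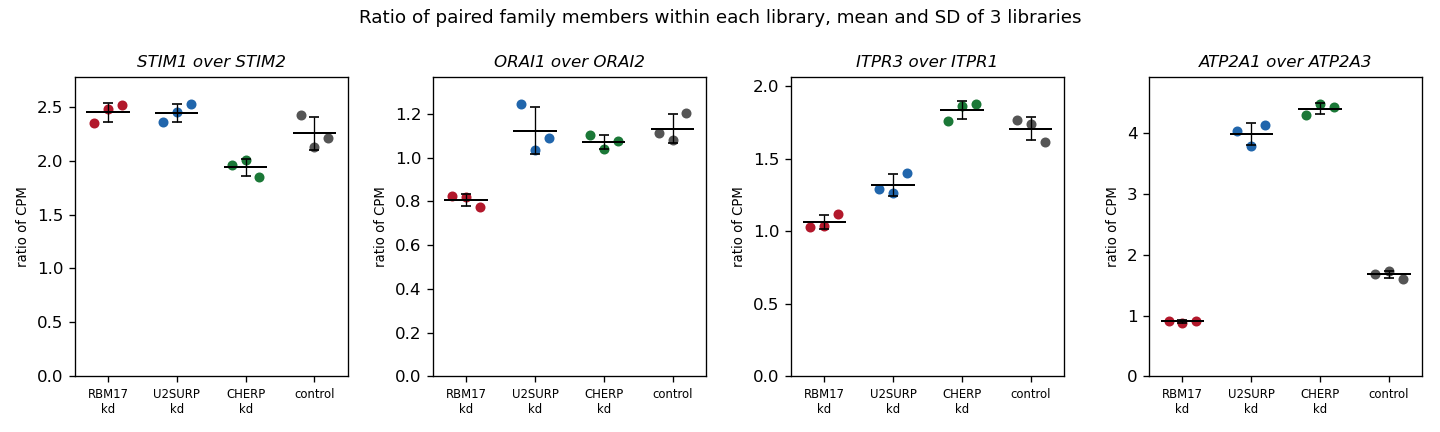
Ratio of CPM between paired family members within each library (points), with mean and SD of 3 libraries, for RBM17, U2SURP and CHERP knockdown and control; each axis starts at 0. The ratio of ATP2A1 to ATP2A3 is 3.79 to 4.47 in the U2SURP and CHERP libraries and 1.61 to 1.73 in control, and that of STIM1 to STIM2 is lowest after CHERP knockdown.

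Per kilobase of merged exons, which adjusts for gene length only roughly, ATP2A2 had by far the highest level in control, at 39.9 CPM per kilobase. It was followed by ITPR3 (15.5), STIM1 (13.9), ORAI1 (10.9), STIM2 (6.38), ITPR2 (4.83), ITPR1 (2.75), ATP2A1 (2.55), ORAI2 (1.96) and ATP2A3 (1.01). Only the neighbours ITPR1 and ATP2A1 overlapped in their control libraries. With the length of the principal transcript, an alternative chosen after seeing the data, the control order was ATP2A2 (134 CPM per kilobase), STIM1 (24.6), STIM2 (19.7), ORAI1 (16.5), ITPR3 (15.5), ITPR1 (9.14), ITPR2 (5.40), ATP2A1 (3.30), ORAI2 (2.02) and ATP2A3 (1.49), since merged exons span 32454 bases for ITPR1 and its principal transcript 9767. Of its neighbours ORAI1 and ITPR3 overlapped in their control libraries. The top and the last 3 places were the same with both lengths. Among the pump genes, ATP2A1 made up 4.46% ± 0.289 of the summed level per merged exon length after RBM17 knockdown, 12.1% ± 0.497 after U2SURP knockdown and 13.8% ± 0.420 after CHERP knockdown, against 5.87% ± 0.515 in control (SD, n = 3 each). ATP2A2 made up 92.3% ± 0.423, 85.9% ± 0.492 and 84.2% ± 0.469 in the 3 knockdowns and 91.8% ± 0.676 in control. With principal transcripts the ATP2A1 shares were 1.80%, 5.10% and 5.88%, against 2.38% in control. Among the IP3 receptor genes ITPR3 made up 58.6% ± 1.53, 67.1% ± 1.26 and 71.0% ± 0.908 per merged exon length after RBM17, U2SURP and CHERP knockdown, against 67.1% ± 1.78 in control. With principal transcripts the ITPR3 shares were 41.3%, 48.7% and 54.9%, against 51.5% in control.

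The knockdowns were also compared directly. Between CHERP and RBM17 knockdown 9 of the 10 genes differed (2 higher, 7 lower in CHERP knockdown), all but ORAI1. There 51.6% of all genes were called (25.5% higher, 26.1% lower), and 69.7% of protein-coding genes with at least 5 CPM (19.8% higher, 49.9% lower). Between RBM17 and U2SURP knockdown 8 differed (6 higher, 2 lower in RBM17 knockdown), all but ORAI1 and ITPR1, where 44.5% of all genes (23.0% higher, 21.5% lower) and 63.6% of those protein-coding genes (45.1% higher, 18.5% lower) were called. Between CHERP and U2SURP knockdown 3 differed, STIM1 and ITPR1 lower and ITPR3 higher in CHERP knockdown. In that comparison 27.9% of all genes (12.9% higher, 15.0% lower) and 42.3% of those protein-coding genes (16.6% higher, 25.7% lower) were called. The count was 5 with GC and length offsets, which added ORAI2 (0.15, adjusted p = 0.036) and ITPR2 (0.15, adjusted p = 0.0205). For the other 7 genes a missed threshold does not show equal levels: ATP2A2, at -0.12 ± 0.053, had no overlap between the libraries of the pair.

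**Figure D4:**
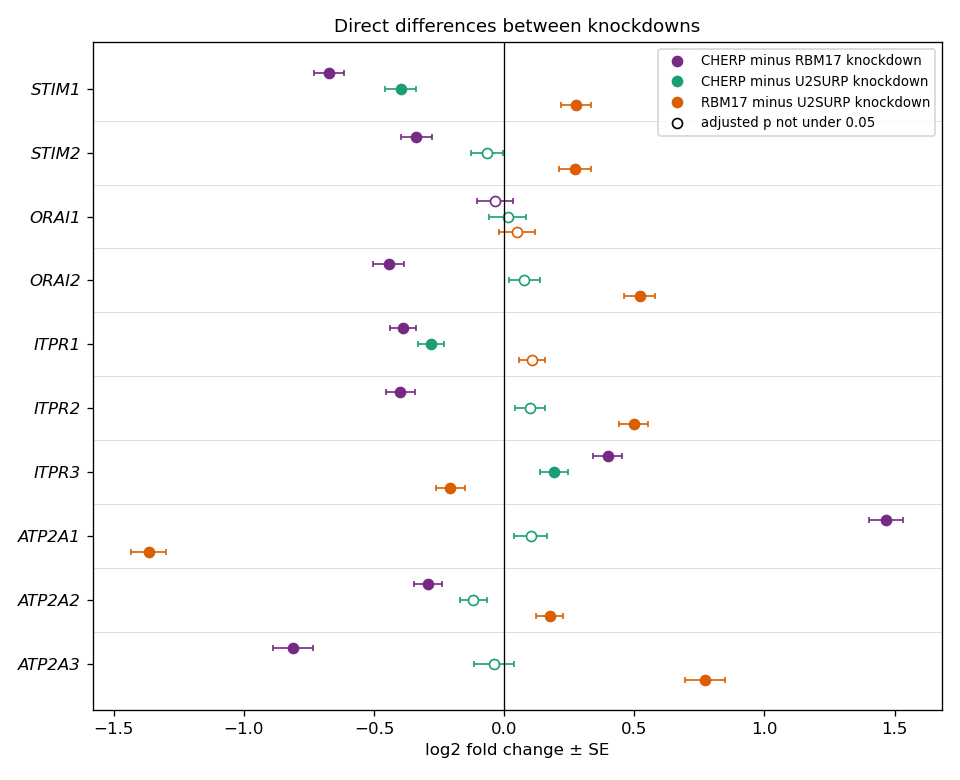
Direct log2 differences ± SE between knockdowns for the 10 genes (edgeR; open symbols, adjusted p not under 0.05). CHERP minus U2SURP knockdown is closest to 0 for most genes, and ATP2A1 has the widest differences, 1.47 for CHERP minus RBM17 and -1.37 for RBM17 minus U2SURP.

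Gene structure was set beside these values as a description. In its principal transcript ATP2A1 has 22 introns with a median of 346.5 bases, of which 13 (59.1%) are under 500 bases, and ITPR3 has 58 introns with a median of 490.5 bases, of which 31 (53.4%) are under 500 bases. The related ITPR1 and ITPR2 have 58 and 56 introns with medians of 2192 and 3613 bases, and only 4 and 5 of them are under 500 bases. ATP2A2 and ATP2A3 have 19 and 20 introns with medians of 937 and 948.5 bases, while STIM1 and STIM2 have 11 introns each with medians of 4738 and 4428 bases. The median over 18750 protein-coding genes of the median intron was 1839 bases. No relation between intron length and change was tested.

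For the genes whose 4 group means of log2 CPM spanned at least 0.5, the protein-coding genes with the most similar pattern were found by the largest absolute difference between centred group means. STIM1 (span 0.91) was nearest to TM7SF2 and GBE1 (largest difference 0.032 for each) and STIM2 (0.69) to TEX15 (0.017) and TLCD2 (0.020). ORAI2 (0.52) was nearest to SAMD4A (0.0099) and ACSL3 (0.017), ITPR2 (0.85) to CTSV (0.050) and SPRYD4 (0.052), and ITPR3 (0.78) to CYTH2 (0.013) and LRRC75B (0.032). ATP2A3 (0.81) was nearest to CDH2 (0.023) and PELI3 (0.031). ATP2A1, with the widest span of 1.47, had few close matches: PTK6 differed by 0.049 at most and the next gene, CYP2E1, by 0.16. ORAI1, ITPR1 and ATP2A2 spanned less than 0.5.

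A wider set of 144 calcium genes in 8 lists, of which 138 passed the filter, was split between directions. After RBM17 knockdown 52 were higher and 43 lower, after U2SURP knockdown 31 higher and 55 lower, and after CHERP knockdown 27 higher and 64 lower, with median log2 fold changes of 0.01, -0.13 and -0.15. The called shares were 68.8%, 62.3% and 65.9%. They lay above the 54.7%, 43.3% and 47.3% of all genes tested and below the 74.5%, 65.8% and 69.2% of protein-coding genes with at least 5 CPM, and the lists hold genes on both sides of that level. The counts per list are to be read against the same backgrounds: after RBM17 knockdown 25.4% of all genes and 49.8% of those protein-coding genes were called higher and 29.3% and 24.7% lower, after U2SURP knockdown 21.1% and 37.4% higher and 22.2% and 28.5% lower, and after CHERP knockdown 22.8% and 35.9% higher and 24.6% and 33.3% lower. The median of those protein-coding genes was 0.14, 0.05 and 0.02 in the 3 comparisons. The 3 values in brackets after a gene are its log2 fold changes in the RBM17, U2SURP and CHERP knockdowns against control, and each passed an adjusted p of 0.05 in edgeR's test unless it is said not to have been called. Some genes named below share much of their exon length with a gene on the opposite strand: BCL2L1 (43.0%), NFATC3 (31.8%), ADCY3 (24.6%) and PPP3R1 (20.8%). ORAI3 shares 52.9% with a gene on the same strand. The part of overlapping reads in their values was not tested.

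Of 24 modulators of store-operated entry, 8 were higher and 10 lower after RBM17 knockdown, 3 higher and 13 lower after U2SURP knockdown and 4 higher and 11 lower after CHERP knockdown (medians -0.09, -0.38 and -0.18). SEPTIN2, a septin of the group known to help STIM1 couple to ORAI1, rose in all 3, by 0.68 ± 0.053, 0.39 ± 0.053 and 0.35 ± 0.053 on the log2 scale (adjusted p = 2.13e-10, 2.17e-06 and 7.68e-06, edgeR). CRACR2A, a regulator of ORAI1 and STIM1, also rose in all 3 (0.42, 0.37 and 0.48). TRPC1, a channel that STIM1 can gate, fell in all 3, to 20.6 ± 1.36, 19.1 ± 0.672 and 19.4 ± 0.482 CPM after RBM17, U2SURP and CHERP knockdown, against 33.0 ± 1.43 CPM in control. The ER tethers ESYT2 (-0.35, -0.38 and -0.66) and ANO8 (-0.56, -0.83 and -0.86) fell in all 3, as did the adenylyl cyclase gene ADCY3 (-0.38, -0.44 and -0.26). HOMER1 (0.49, 0.30 and 0.05) was not called after CHERP knockdown. The remaining ORAI gene, ORAI3, named after its values were seen, averaged 0.847, 0.929 and 1.34 CPM after RBM17, U2SURP and CHERP knockdown, against 1.35 CPM in control, and was not called after CHERP knockdown.

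Among 24 tested regulators of the IP3 receptors and other ER release channels, 9 were higher and 6 lower after RBM17 knockdown, 5 higher and 10 lower after U2SURP knockdown and 3 higher and 15 lower after CHERP knockdown (medians -0.08, -0.16 and -0.40). RYR2, the cardiac ryanodine receptor, averaged 34.6 ± 1.12 CPM after RBM17, 54.1 ± 0.851 CPM after U2SURP and 34.4 ± 1.87 CPM after CHERP knockdown, against 56.9 ± 1.51 CPM in control. It fell after RBM17 and CHERP knockdown (-0.72 ± 0.052 and -0.73 ± 0.052, adjusted p = 6.04e-11 and 6.53e-11, edgeR) and was not called after U2SURP knockdown (-0.07 ± 0.051, adjusted p = 0.278). In direct comparisons RYR2 was lower than after U2SURP knockdown by -0.64 ± 0.052 in RBM17 and -0.65 ± 0.052 in CHERP knockdown (adjusted p = 6.71e-10 and 1.66e-09). PKD2, polycystin 2, fell in all 3 (-0.53, -0.65 and -0.93), and BCL2L1, whose product binds IP3 receptors, rose in all 3 (0.65, 0.66 and 0.32). Its relative BCL2 (0.60, 0.61 and 0.07) was not called after CHERP knockdown. FKBP1A (0.49, 0.27 and -0.26) rose after RBM17 and U2SURP knockdown and fell after CHERP knockdown. ITPRIPL1 (0.06, -0.39 and -0.20) was not called after RBM17 knockdown, and ITPRIPL2 (0.15, 0.06 and 0.31) not after U2SURP knockdown.

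Of 12 tested SERCA regulators, 4 were higher and 3 lower after RBM17 knockdown, 1 higher and 7 lower after U2SURP knockdown and 1 higher and 5 lower after CHERP knockdown. HAX1 rose in all 3 (0.47, 0.25 and 0.44). S100A1, a calcium binding protein known in heart to activate SERCA2, fell to 1.04 ± 0.0127, 1.05 ± 0.0820 and 1.64 ± 0.140 CPM after RBM17, U2SURP and CHERP knockdown, against 2.90 ± 0.393 CPM in control. ERLN, whose micropeptide regulates SERCA, fell in all 3 (-0.21, -0.43 and -0.39). TMX2 (0.40, -0.24 and -0.09) was not called after CHERP knockdown, and TMX1 (0.02, -0.35 and -0.25) not after RBM17 knockdown.

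The 16 genes listed as ER luminal calcium binding proteins include some, such as NUCB1, whose products are not confined to the ER. Of the 16, 1 was higher and 7 lower after RBM17 knockdown (median -0.11). After U2SURP knockdown 2 were higher and 10 lower (median -0.33), and after CHERP knockdown 2 and 11 (median -0.60). HSP90B1, the ER chaperone GRP94, averaged 659 ± 50.5, 791 ± 17.4 and 499 ± 34.6 CPM after RBM17, U2SURP and CHERP knockdown, against 1264 ± 102 CPM in control, changes of -0.94, -0.68 and -1.34. PDIA4, a protein disulfide isomerase (-0.27, -0.40 and -0.96), and NUCB1, nucleobindin (-0.46, -0.58 and -0.59), also fell in all 3.

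Of 17 tested genes of IP3 production and removal, 6 were higher and 6 lower after RBM17 knockdown, 6 and 1 after U2SURP knockdown and 4 and 4 after CHERP knockdown. INPP5A, which removes IP3, rose in all 3 (0.76, 0.33 and 0.46), as did the phospholipase gene PLCE1 (0.39, 0.34 and 0.31), while the phospholipase gene PLCB3 fell in all 3 (-0.29, -0.29 and -0.45). PLCD3 (0.49, 0.04 and 0.24) was not called after U2SURP knockdown. PLCD4 (-0.40, 0.15 and 0.12) was called after RBM17 knockdown alone, and PLCG1 (-0.00085, -0.10 and -0.24) after CHERP knockdown alone.

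Calcium export, 14 tested genes, had 4 higher and 7 lower after RBM17 knockdown, 0 higher and 8 lower after U2SURP knockdown and 0 higher and 7 lower after CHERP knockdown. The plasma membrane pump genes ATP2B1 (-0.25, -0.56 and -0.75) and ATP2B4 (-0.35, -0.43 and -0.46) fell in all 3. BSG, a partner of these pumps, rose after RBM17 knockdown and fell in the others (0.26, -0.27 and -0.82). SLC24A1 (-0.63, -0.33 and 0.10) was not called after CHERP knockdown. SLC8A2, a sodium-calcium exchanger, rose after RBM17 knockdown, to 2.23 ± 0.247 CPM against 0.892 ± 0.105 CPM in control (1.32), was not called after U2SURP knockdown (-0.33) and fell after CHERP knockdown (-1.24).

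The 17 genes listed under mitochondrial calcium uptake do not all act in uptake, so their counts do not describe uptake itself. Of them 12 were higher and 3 lower after RBM17 knockdown (median 0.32), 7 and 4 after U2SURP knockdown (0.12) and 7 and 8 after CHERP knockdown (-0.18). HSPA9, a chaperone that bridges IP3 receptors to the mitochondrial outer membrane, rose in all 3 (1.06, 0.55 and 0.43). VAPB (0.37, 0.62 and 0.41), MCUB (0.51, 0.41 and 0.58) and MCUR1 (0.33, 0.41 and 0.50) rose in all 3 as well. SLC8B1, the mitochondrial sodium-calcium exchanger, fell in all 3 (-0.37, -0.84 and -0.67), and RMDN3 (-0.39, -0.05 and -0.19) was not called after U2SURP knockdown.

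Calcineurin and NFAT, the pathway that calcium entry activates, had 8 of 14 genes higher and 1 lower after RBM17 knockdown (median 0.32), 7 and 2 after U2SURP knockdown (0.18) and 6 and 3 after CHERP knockdown (0.06). The regulatory subunit PPP3R1 (0.70, 0.56 and 0.46) and the transcription factor NFATC3 (0.44, 0.22 and 0.43) rose in all 3. NFATC2 fell after RBM17 knockdown and rose in the others (-0.29, 0.39 and 0.41), and the catalytic subunit PPP3CA rose after RBM17 and U2SURP knockdown and fell after CHERP knockdown (0.43, 0.46 and -0.28). RCAN2, a calcineurin inhibitor (1.15, 0.45 and 0.12), was not called after CHERP knockdown. PPP3CB (0.13, 0.41 and 0.65) and NFATC4 (0.0037, -0.30 and -0.52) were not called after RBM17 knockdown, and AKAP5 (-0.04, -0.45 and -0.12) was called after U2SURP knockdown alone.

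**Figure D5:**
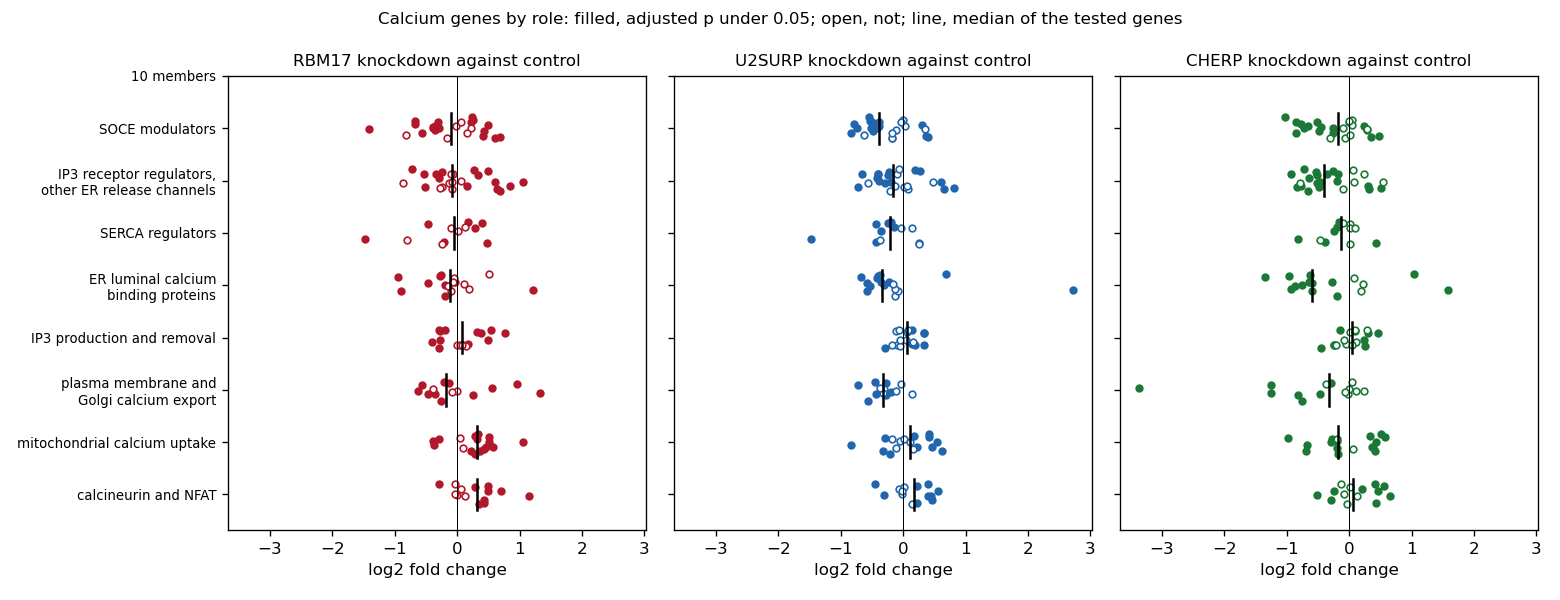
Log2 fold change of every tested gene of the wider calcium lists (rows) in each knockdown against control. The 10 genes described above are not among the points, and the row labelled for them is empty. Filled points have an adjusted p under 0.05 in edgeR's test, open points do not, and a black line marks the median. The list of luminal calcium binding proteins has its lowest median after CHERP knockdown (-0.60). The median of the mitochondrial uptake list after RBM17 knockdown is 0.32, beside 0.14 for protein-coding genes with at least 5 CPM.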

How the data were processed

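Gene-level read counts per Ensembl gene ID were deposited by the authors for each of the 12 libraries, with no normalisation. RNA came from a total RNA kit and libraries from a stranded mRNA kit, per the labels' protocols. HISAT2 2.0.5, SAMtools, HTSeq and GRCh38 are named, without roles, per the submitters' processing notes. Which annotation release and strand mode HTSeq used is not given in the sources used here. Of 60554 IDs, 56996 matched GENCODE 29, which gave symbols, coordinates, lengths and exon overlaps, and 3558 did not.

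All 4 groups entered 1 robust quasi-likelihood fit in edgeR 4.0.16 (R 4.3.3) after filterByExpr (minimum count 10) and TMM scaling, which left 29003 genes and a common biological coefficient of variation of 0.0866. Each contrast was adjusted over all genes by Benjamini-Hochberg and called under 0.05. CPM used TMM-scaled library sizes, and SDs are over libraries. Pairs of libraries within a group differed by far more than sampling noise, with a chi-square per gene of 10.8 to 46.6, and each library was kept as its own replicate. At these depths the spread between libraries, not counting, limits precision.

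The members and the pathway lists were chosen with earlier results of these data known. From each list and comparison up to 2 called genes in each direction, by smallest p among genes with a mean of at least 1 CPM, are named, together with the 10 genes and the siRNA targets; some genes this rule picks are not reported here. Alternatives covered DESeq2 1.42.0, scaling, filters, offsets for GC content and length, the groups fitted and each library left out in turn.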

Additional observations from a re-analysis of the deposited data

How the results depend on the processing

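Over 780 combinations of gene, contrast and alternative for the 10 genes, 746 kept their direction and side of the threshold, 15 lost the call, 8 gained it and 11 changed sign. The number of the 10 genes called moved beyond 1.5 times in 1 case, CHERP against U2SURP knockdown, with 5 under GC and length offsets against 3. Those offsets also changed the sign of ITPR1 in RBM17 knockdown against control (0.0165), of ORAI2 in CHERP knockdown against control (0.00165), of ATP2A3 in CHERP against U2SURP knockdown (0.0630), and of ORAI1 in CHERP against RBM17 knockdown (0.103) and RBM17 against U2SURP knockdown (-0.0349); the cause was not tested. ORAI1 also changed sign among protein-coding genes alone in CHERP against RBM17 (0.0438) and RBM17 against U2SURP knockdown (-0.0113). With 1 library left out ORAI1 ran from -0.0735 to 0.0123 in CHERP against RBM17 knockdown (highest without RBM17 library 1) and from -0.0189 to 0.0502 in CHERP against U2SURP knockdown. In CHERP against U2SURP knockdown it was -0.0189 without CHERP library 1, -0.0130 without U2SURP library 2 and -0.00880 without U2SURP library 3. With each library left out in turn, the count of the 10 genes called was 7 to 9 for RBM17, 10 for U2SURP and 9 to 10 for CHERP knockdown against control, 9 for CHERP against RBM17, 2 to 4 for CHERP against U2SURP and 8 for RBM17 against U2SURP knockdown. No scaling moved the median of all genes by over 0.1 on the log2 scale. No paired analysis was possible because the labels give no replicate number shared between groups. The smallest count of 1459 reads means that depth did not limit the 10 genes.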

Other observations

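Other calcium genes outside the naming rule, chosen after their values were seen, also changed. CASQ2, the calcium storage protein calsequestrin of heart muscle, averaged 0.441 ± 0.137, 1.26 ± 0.137 and 0.575 ± 0.0578 CPM after RBM17, U2SURP and CHERP knockdown, against 0.189 ± 0.0592 CPM in control (SD, n = 3 each), log2 changes of 1.21, 2.73 and 1.59 (adjusted p = 8.14e-05, 1.45e-09 and 2.61e-06, edgeR). It was thus higher in all 3 knockdowns, unlike ATP2A1, which was lower after RBM17 knockdown. SLC8A1, a sodium-calcium exchanger of the plasma membrane, averaged 8.98 ± 0.571, 7.97 ± 1.14 and 5.54 ± 0.923 CPM, against 13.2 ± 0.123 CPM in control, log2 changes of -0.56, -0.73 and -1.25 (adjusted p = 5.93e-05, 3.83e-06 and 1.19e-09). The potassium-dependent exchanger SLC24A2 averaged 0.0773 ± 0.0208 CPM after CHERP knockdown and 0.802 ± 0.143 CPM in control, a log2 change of -3.37 (adjusted p = 5.85e-11). It was 1.19 ± 0.271 CPM after RBM17 knockdown and 0.621 ± 0.101 CPM after U2SURP knockdown, and the U2SURP change was not called (adjusted p = 0.125).

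The luminal chaperone genes HSPA5 and CALR, also named after their values were seen, had their lowest levels after CHERP knockdown. HSPA5, which encodes BiP, averaged 732 ± 30.1, 674 ± 18.0 and 493 ± 6.63 CPM after RBM17, U2SURP and CHERP knockdown, against 835 ± 47.1 CPM in control (log2 changes of -0.19, -0.31 and -0.76; adjusted p = 0.00421, 4.66e-05 and 5.67e-11). CALR, calreticulin, averaged 379 ± 18.0, 289 ± 13.99 and 230 ± 12.5 CPM, against 417 ± 34.0 CPM in control, and its RBM17 change was not called (-0.14, adjusted p = 0.0581).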
